A study of Homo sapiens with 6 samples.

Results

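The metallothioneins MT1E, MT1F, MT1G, MT1M, MT1X and MT2A were followed together with the metal-sensing factor MTF1 and the zinc transporters SLC30A1, SLC39A10 and SLC39A14, 10 genes chosen by symbol out of the 54628 in the count tables. RNA came from U87, a long-established glioblastoma cell line of human origin, after cell sorting from a co-culture, and the series title names a shuttle of mitochondria from astrocytes. All the cells are labelled cycling: 3 libraries are of cells that received mitochondria (received) and 3 of cells that did not (not received), with no further treatment, time or genotype given. Whether the replicates were grown apart is not said in the labels, so the p-values speak only of the spread among these 6 libraries. The labels do not name the species of the astrocytes.

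Metallothioneins are small, cysteine-rich proteins of the cytosol that hold zinc and copper, buffer the free metal and react with oxidants. When free zinc rises, MTF1 binds it, enters the nucleus and binds metal response elements in the promoters of metallothionein genes and of SLC30A1, which pumps zinc out of the cell. Transporters of the SLC39 family bring zinc into the cytosol. SLC39A10 is known to be held down by MTF1 in zinc-replete cells, and SLC39A14, which also carries iron and manganese, is induced by interleukin-6 in liver. Metallothionein genes also respond to glucocorticoids, interleukin-6 and oxidative stress, and astrocytes are a main site of their expression in brain.

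The promoter sequences at hand covered 5 of the 10 genes, so MT1E, MT1F, MT1G, MT1M and SLC39A14 could not be searched. The promoters of 4 of those covered are shown because they differ in how many copies of the metal response element core they hold. The core was searched as TGCACNC and TGCGCNC on both strands in the 250 bases before the transcript start, in RefSeq sequences of GRCh38.p14. Capitals mark each match, and the matches shown do not overlap.

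MT2A: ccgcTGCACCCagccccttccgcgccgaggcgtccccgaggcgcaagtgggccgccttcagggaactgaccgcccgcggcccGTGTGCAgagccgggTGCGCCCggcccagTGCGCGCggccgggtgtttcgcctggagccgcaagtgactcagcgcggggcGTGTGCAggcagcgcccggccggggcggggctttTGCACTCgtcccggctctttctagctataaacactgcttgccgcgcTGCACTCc

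MT1X: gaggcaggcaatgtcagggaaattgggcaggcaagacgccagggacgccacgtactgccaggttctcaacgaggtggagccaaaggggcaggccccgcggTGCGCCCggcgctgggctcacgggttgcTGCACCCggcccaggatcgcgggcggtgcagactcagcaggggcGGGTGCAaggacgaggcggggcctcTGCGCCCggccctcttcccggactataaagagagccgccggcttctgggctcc

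SLC30A1: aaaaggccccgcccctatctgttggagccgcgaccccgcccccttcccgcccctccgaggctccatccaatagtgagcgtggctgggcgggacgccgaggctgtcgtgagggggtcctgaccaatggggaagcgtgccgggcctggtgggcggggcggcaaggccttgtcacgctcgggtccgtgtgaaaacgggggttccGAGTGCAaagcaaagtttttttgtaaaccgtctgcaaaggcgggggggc

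SLC39A10: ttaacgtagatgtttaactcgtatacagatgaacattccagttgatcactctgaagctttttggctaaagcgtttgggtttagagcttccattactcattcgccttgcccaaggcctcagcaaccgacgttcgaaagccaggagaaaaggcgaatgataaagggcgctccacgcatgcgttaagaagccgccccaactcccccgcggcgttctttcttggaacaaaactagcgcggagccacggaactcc

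The MT2A window (chr16:56608334-56608583, plus strand) held 7 matches, of which the nearest to the start lay 8 to 2 bases upstream. The MT1X window (chr16:56682220-56682469, plus strand) held 4, and the SLC30A1 window (chr1:211579162-211579411, minus strand) held 1. No match was found in the SLC39A10 window (chr2:195656708-195656957, plus strand), nor in a window before a later start of the same gene, nor in that of MTF1. Among all 35116 promoters of this length, 24.8% held at least 1 match, 0.37% at least 4 and 0.0313% at least 7. A metallothionein gene without counts here held matches as well: MT1H, with 0 counts in every library, had 8. Each window stopped at its transcript start, so a match after that start lay outside it. A match is a run of letters and not a measured binding site, and binding was not assayed in these libraries.

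Total counts ran from 17879552 to 46392491 per library. Not-received replicate 2 was the deepest and stood apart from its group: chi-square per gene was 18.5 and 16.9 against the other not-received libraries, 5.40 between those, and 3.23 to 3.68 between received libraries. Genes known in this line were abundant (received and not-received means of 4680 and 3918 CPM for VIM and 871 and 1019 CPM for CD44). Of 10 astrocyte markers, AQP4, ALDH1L1 and GJB6 were at 0 counts, and the 10 summed to 28.2 to 32.2 CPM in received and 31.1 to 34.5 CPM in not-received libraries, nearly all of it from SLC1A3 and SLC4A4. Of 8 microglia markers 4 had 0 counts and the sum was 25.0 to 27.8 against 26.7 to 28.3 CPM, nearly all of it from CSF1R and TMEM119. A 0 is not read as absence, since genes active in most cells, such as SLC39A7, were also at 0. The 7 neuron markers summed to 26.8 to 32.2 against 34.2 to 37.0 CPM, and of these SNAP25 was called lower (log2 fold change -0.49 ± 0.12 SE, edgeR adjusted p = 0.0101), a call that ended without received replicate 1 (edgeR adjusted p = 0.0686). The part of other cells in the results below was not tested beyond these values. In RNA from pooled cells, fewer cells with a transcript and less of it per cell cannot be told apart.

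In cells that received mitochondria, the zinc importer SLC39A10 rose 1.52-fold and the metallothionein MT1M fell by 0.71 on the log2 scale. The SLC39A10 call held in all 13 alternative fits, and the MT1M call in 8 of them. The other metallothioneins, MTF1, SLC30A1 and SLC39A14 did not pass the test. The abundant MT2A stood higher on average and all 4 expressed MT1 genes stood lower on average, and the share of MT2A in the metallothionein counts was larger in every received library than in every not-received one. Levels are TMM-scaled CPM, that is, counts scaled to a common library size, fold changes are received over not received, and a gene is called at a Benjamini-Hochberg adjusted p under 0.05 in edgeR's quasi-likelihood test across all genes. MT1G was too low to test, with 2 counts in all. Of the 9 members tested, 1 was called higher, where 9.21% of all 14100 genes tested were, and 1 lower, where 9.67% were, and 2 in either direction, where 18.9% were. The share called among the members is therefore close to that among all genes. The members were chosen with earlier results of these data known, so their share is not that of a list picked blind. The median log2 fold change of the 9 was -0.03, against -0.0012 over all genes. Over all genes 48.8% of the calls were higher with TMM factors, and 60.3% when only the library size was used for scaling. Received and not-received libraries did not overlap for 3 of the 9, as for 39% of all genes: SLC39A10 and SLC39A14 were higher and MT1M was lower in received libraries, where 19.5% of all genes separated upward and 19.5% downward.

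**Figure D1:**
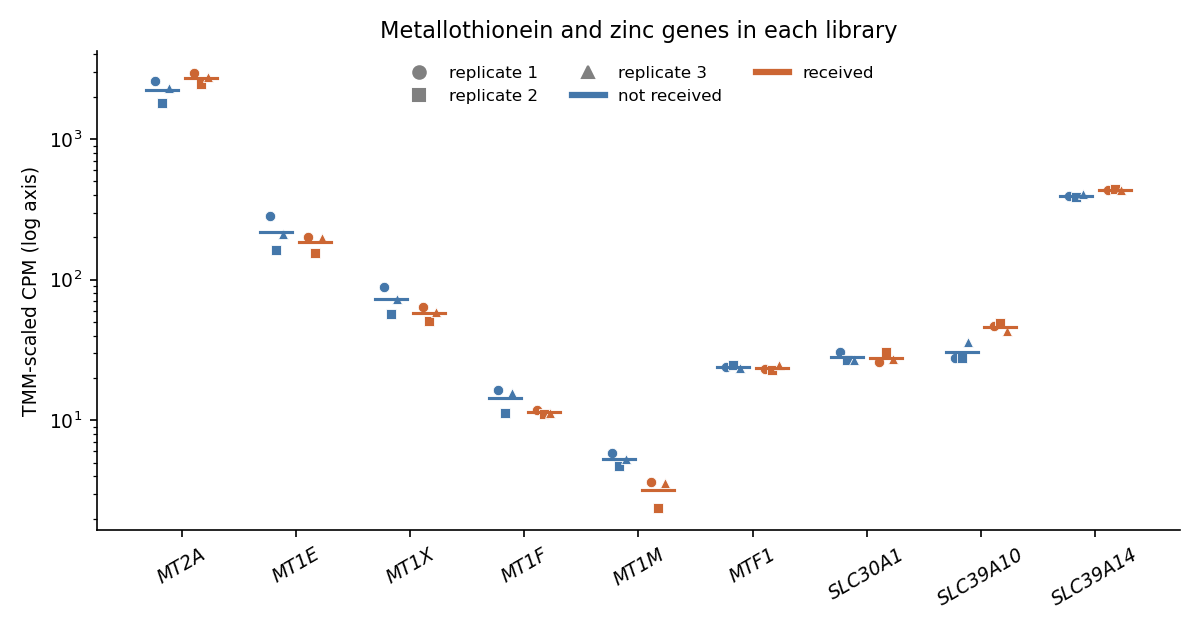
TMM-scaled CPM (log axis) of the 9 tested genes in each library. Points are libraries, with the replicate number as the symbol, blue for not received and orange for received, and bars are group means. MT2A is the highest in every library. SLC39A10, SLC39A14 and MT1M separate by group, and replicate 2 is the lowest library of each group for the 5 metallothioneins.

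MT2A, the main metallothionein message of most tissues, was by far the most abundant member. It stood at 2975, 2480 and 2768 CPM in the received libraries and at 2609, 1792 and 2324 CPM in the not-received libraries. The groups overlapped, since not-received replicate 1 lay above received replicate 2. The means were 2741 ± 249 and 2242 ± 415 CPM (SD, n = 3 each), a log2 fold change of 0.29 ± 0.15 SE that was not called (edgeR adjusted p = 0.219). Without not-received replicate 2, the lowest library, the log2 fold change was 0.15, and without not-received replicate 1 it was 0.41 (edgeR adjusted p = 0.162 and 0.0658). With no low-count filter it was called at nearly the same size (0.29 ± 0.07 SE, edgeR adjusted p = 0.00117).

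MT1E, the most abundant MT1 gene here, stood at 201, 154 and 198 CPM in received and 283, 162 and 211 CPM in not-received libraries. The groups overlapped, and not-received replicate 1 was the highest of the 6. The log2 fold change of -0.24 ± 0.25 SE was not called (edgeR adjusted p = 0.566) and was -0.01 without that library.

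MT1X stood at 63.6, 50.6 and 58.6 CPM in received and 88.5, 56.6 and 72.5 CPM in not-received libraries. Its groups overlapped only through not-received replicate 2, and its log2 fold change of -0.32 ± 0.18 SE was not called (edgeR adjusted p = 0.274). MT1F stood at 11.8, 11.0 and 11.3 CPM in received and 16.4, 11.2 and 15.7 CPM in not-received libraries. Here too not-received replicate 2 lay among the received libraries while the other 2 lay above them, and the log2 fold change was -0.33 ± 0.14 SE (edgeR adjusted p = 0.113). Without not-received replicate 2, both genes were called lower (log2 fold changes -0.48 ± 0.10 SE for MT1X and -0.50 ± 0.11 SE for MT1F, edgeR adjusted p = 0.00386 and 0.00349). MT1X was also called with no low-count filter (edgeR adjusted p = 0.0287).

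MT1M was the lowest of the tested metallothioneins, with 44 to 213 counts per library. It stood at 3.63, 2.36 and 3.56 CPM in received and 5.81, 4.69 and 5.27 CPM in not-received libraries, and every received library lay below every not-received one. The mean fell from 5.26 ± 0.561 to 3.18 ± 0.713 CPM (SD, n = 3 each), a log2 fold change of -0.71 ± 0.20 SE (edgeR adjusted p = 0.0239). The call rests on the full set of libraries: it ended when not-received replicate 1 or 3 or received replicate 1, 2 or 3 was left out (edgeR adjusted p = 0.0722, 0.0545, 0.0505, 0.117 and 0.0578), while the log2 fold change stayed between -0.82 and -0.54.

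**Figure D2:**
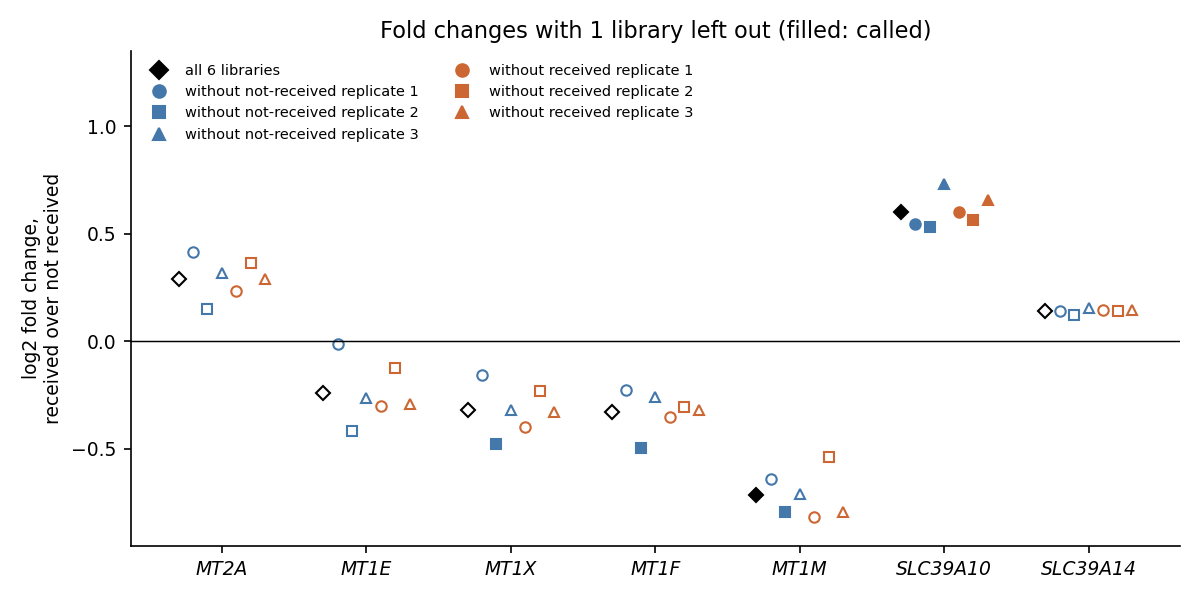
Log2 fold change, received over not received, of 7 members with all 6 libraries (black diamonds) and with 1 library left out (blue for a not-received library, orange for a received one, symbol by replicate number). Filled symbols are called at an adjusted p under 0.05: SLC39A10 is filled throughout, MT1M with all 6 libraries and without not-received replicate 2, and MT1X and MT1F only without that library.

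The 5 metallothioneins shared an order of libraries within the groups. All 5 were highest in received replicate 1 and lowest in received replicate 2, and all 5 were highest in not-received replicate 1 and lowest in not-received replicate 2. None of MTF1, SLC30A1, SLC39A10 and SLC39A14 followed that order in both groups. Outside the family, COX17, a copper gene, and CEBPB, a gene of interleukin-6 signalling, did follow it in both. So did PAICSP1, FAU, TMEM126A and P2RX6, which are named below because their profiles were close to the summed metallothionein level. The metallothionein pseudogene MT1L did not, since it was highest in not-received replicate 3. How many of all genes tested share the order was not counted, so it is not read as a family trait. The coefficient of variation between not-received libraries was 27.7% for MT1E, 22.0% for MT1X, 19.4% for MT1F, 18.5% for MT2A and 10.7% for MT1M, and it was 15.4% for SLC39A10, 7.41% for SLC30A1, 2.32% for MTF1 and 2.16% for SLC39A14. Between received libraries it ran from 3.23% (MT1F) to 22.4% (MT1M) for the metallothioneins and from 0.696% (SLC39A14) to 8.97% (SLC30A1) for the other 4.

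The 12 protein-coding metallothionein genes summed to 3255, 2698 and 3040 CPM in received and 3002, 2027 and 2629 CPM in not-received libraries. The means were 2998 ± 281 and 2553 ± 492 CPM (SD, n = 3 each), and the groups overlapped (log2 difference 0.25, exact two-sided permutation p = 0.2, where 3 against 3 cannot go under 0.1). Without not-received replicate 2 the log2 difference was 0.09, and without not-received replicate 1 it was 0.37. The MT1 genes summed to 257 ± 33.5 CPM in received and 311 ± 79.6 CPM in not-received cells (log2 difference -0.25, exact two-sided permutation p = 0.4).

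Within each library the mix of the family could be read without any scaling between libraries. MT2A took 91.4%, 91.9% and 91.1% of the family's counts in received and 86.9%, 88.4% and 88.4% in not-received libraries, with no overlap. The share of MT1E was 6.14% ± 0.402 in received and 8.49% ± 0.813 in not-received cells, and that of MT1X was 1.92% ± 0.0398 and 2.83% ± 0.102 (SD, n = 3 each). For each of these 3 genes the exact two-sided permutation p was 0.1, the smallest possible, and 0.1 after adjustment over the 3. The other 9 genes together took 0.482% to 0.806% of the family's counts. A larger share of MT2A thus leaves less for MT1E and MT1X, and the 3 p-values are not separate results. MT2A counts were 10.6, 11.3 and 10.2 times those of all MT1 genes in received libraries and 6.63, 7.63 and 7.63 times in not-received libraries.

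Each MT1 gene was also set against MT2A of the same library, a measure chosen after the values were seen. For every 1000 MT2A counts, MT1X had 21.4, 20.4 and 21.2 counts in received and 33.9, 31.6 and 31.2 counts in not-received libraries. MT1F had 4.16 ± 0.261 against 6.43 ± 0.269 and MT1E 67.1 ± 4.70 against 96.6 ± 10.3 (SD, n = 3 each). MT1M had 1.15 ± 0.177 against 2.37 ± 0.214. None of these 4 ratios overlapped between the groups, and the log2 differences were -0.52 for MT1E, -0.62 for MT1X, -0.63 for MT1F and -1.05 for MT1M (exact two-sided permutation p = 0.1 each, the smallest possible, 0.125 adjusted over 5 ratios). With any 1 library left out they ranged from -0.57 to -0.44, from -0.64 to -0.58, from -0.68 to -0.59 and from -1.13 to -0.92. A ratio does not tell which of its 2 genes differed. All 4 ratios have the same MT2A counts below the line, so they are not 4 separate results. How many of all genes separate in their ratio to MT2A was not counted, and 39% of all genes separated in CPM.

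MT1L, a transcribed pseudogene that lies between MT2A and MT1E in RefSeq, did not share the lower ratio of the MT1 genes. It had 18.6, 18.6 and 18.5 counts per 1000 MT2A counts in received and 16.5, 19.2 and 20.9 in not-received libraries (log2 difference -0.01, from -0.11 to 0.06 with 1 library left out, exact two-sided permutation p = 1). Its level was 50.9 ± 4.62 and 42.0 ± 7.09 CPM (SD, n = 3 each; log2 fold change 0.29 ± 0.12 SE, edgeR adjusted p = 0.130), and it was called higher without not-received replicate 3 (edgeR adjusted p = 0.0285) and with no low-count filter (edgeR adjusted p = 0.00321). Metallothionein messages are close to one another in sequence, and no label or file tells how reads that match several of them were counted, so the split of counts within the family is uncertain.

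**Figure D3:**
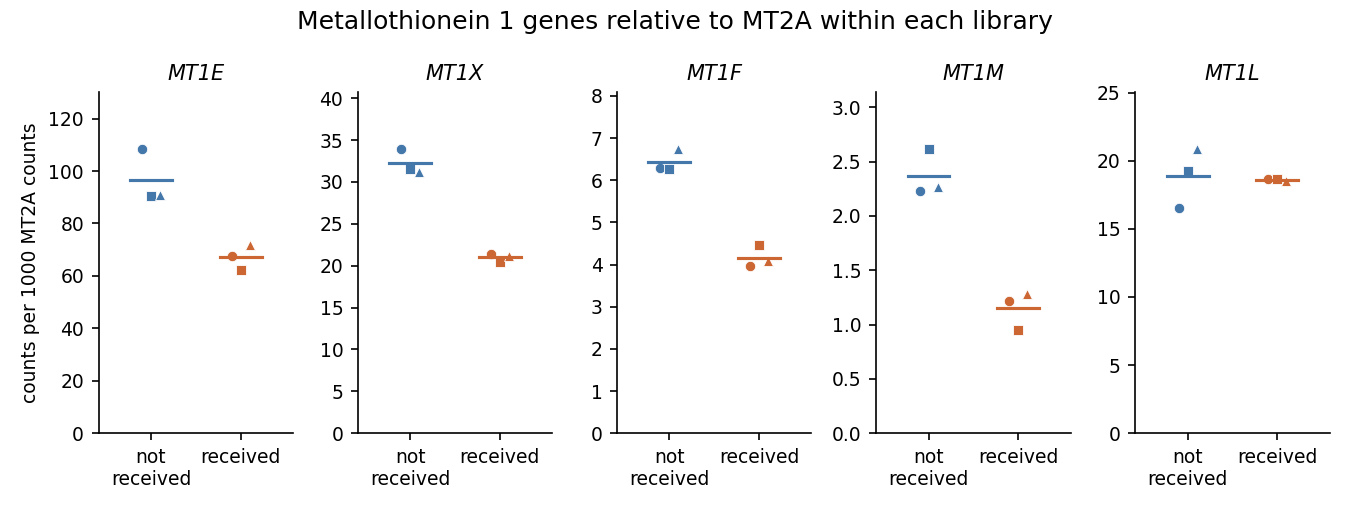
Counts of MT1E, MT1X, MT1F, MT1M and MT1L for every 1000 MT2A counts of the same library, 1 panel a gene, each axis from 0. Points are libraries (circle, square and triangle for replicates 1, 2 and 3) and bars are group means: the 4 MT1 genes are lower in all 3 received libraries, and MT1L overlaps between the groups.

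The rest of the family had few counts or none. MT1A, MT1H, MT1HL1, MT3, which encodes the metallothionein best known from brain, and MT4 had 0 counts in all 6 libraries, which allows up to 0.0661 CPM in the deepest and 0.167 CPM in the shallowest library (3 counts, counting error only). That limit takes no account of reads that match several genes, and genes active in most cells, such as SLC39A7, were also at 0, so a 0 here is not read as absence. MT1B had 13 counts in all. The 2 counts of MT1G were both in not-received replicate 2, so no fold is given. Of 9 metallothionein pseudogenes MT1L alone passed the filter on low counts.

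MTF1, the metal sensor, was not called. It stood at 23.2, 22.6 and 24.9 CPM in received and 24.1, 24.6 and 23.5 CPM in not-received libraries (log2 fold change -0.03 ± 0.08 SE, edgeR adjusted p = 0.816). SLC30A1, the zinc exporter of the plasma membrane, stood at 25.8, 30.6 and 27.2 CPM and at 30.4, 26.6 and 27.0 CPM (log2 fold change -0.0055 ± 0.088 SE, edgeR adjusted p = 0.974). Both genes overlapped between the groups, and the sign of both turned when the library size alone set the scale (0.0069 and 0.032).

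SLC39A10, a zinc importer of the plasma membrane, showed the clearest difference among the 10. It stood at 46.8, 49.1 and 42.8 CPM in received libraries and at 27.8, 27.9 and 36.0 CPM in not-received libraries, with 511 to 1267 counts behind each value. Every received library lay above every not-received one, although not-received replicate 3 lay closer to the received libraries than the others did. The mean was 46.2 ± 3.18 against 30.6 ± 4.71 CPM (SD, n = 3 each; log2 fold change 0.60 ± 0.10 SE, edgeR adjusted p = 0.00165). All 13 alternative fits called it, with log2 fold changes from 0.53 to 0.73.

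SLC39A14 was the most abundant transporter member, at 434, 439 and 434 CPM in received and 396, 387 and 404 CPM in not-received libraries. The groups did not overlap and the spread within them was small, but the difference of 1.10-fold was not called (log2 fold change 0.14 ± 0.05 SE, edgeR adjusted p = 0.0784). It was called by DESeq2 (adjusted p = 0.0477) and with scaling by library size alone (edgeR adjusted p = 0.0310), at log2 fold changes of 0.14 and 0.18.

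Levels of different genes were compared per kilobase of spliced transcript, with lengths from GENCODE release 29. Over all 6 libraries the order was MT2A (3169 CPM per kb), MT1E (286), MT1X (145), SLC39A14 (89.6), MT1F (18.7), SLC39A10 (7.14), SLC30A1 (5.11), MT1M (5.09) and MTF1 (2.99). The libraries of neighbours in this order overlapped for SLC39A10 with SLC30A1, for SLC30A1 with MT1M and for MT1M with MTF1. Within the groups the lower part of the order differed: in not-received cells MT1M (6.34 ± 0.677) stood above SLC39A10 (5.68 ± 0.877) and SLC30A1 (5.12 ± 0.379), and in received cells SLC39A10 (8.60 ± 0.591) and SLC30A1 (5.09 ± 0.456) stood above MT1M (3.84 ± 0.860 CPM per kb, SD, n = 3 each). The not-received order of means did not hold in each library. In not-received replicate 3 SLC39A10 (6.69) lay above MT1M (6.36), and in not-received replicate 1 SLC30A1 (5.56) lay above SLC39A10 (5.16 CPM per kb). These lengths are approximate, since no label or file names the transcript annotation behind the counts.

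The other zinc transporters moved little. In the SLC39 family 10 of 14 genes were tested, 1 was called higher (SLC39A10), a share near the 9.21% of all genes, and 0 lower by edgeR (3 and 0 at an unadjusted p under 0.05; 2 and 0 by DESeq2), and the median was 0.11 on the log2 scale. Uncalled members ran from -0.15 for SLC39A13, a transporter of the secretory pathway, to 0.46 for SLC39A4, the gut zinc importer, which had only 120 counts in all. Without not-received replicate 2, SLC39A8 and SLC39A13 were called lower (log2 fold changes -0.20 and -0.21, edgeR adjusted p = 0.0487 and 0.0227). SLC39A7, which releases zinc from the endoplasmic reticulum and is active in most cells, was at 0 counts in all 6 libraries, so its level is uncertain here.

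Among the 10 SLC30 genes 6 were tested, and 0 were called in either direction by edgeR, DESeq2 or limma-voom (1 at an unadjusted p under 0.05), with log2 fold changes from -0.19 (SLC30A4) to 0.19 (SLC30A9). SLC30A9, which is linked to zinc in mitochondria, stood at 123 ± 5.04 and 108 ± 6.35 CPM (SD, n = 3 each; edgeR adjusted p = 0.0533, unadjusted p = 0.0104), and it was called higher without not-received replicate 2, with library-size scaling and with the CPM filter, 1 CPM or more in 3 libraries or more (edgeR adjusted p = 0.0184, 0.0235 and 0.0444).

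**Figure D4:**
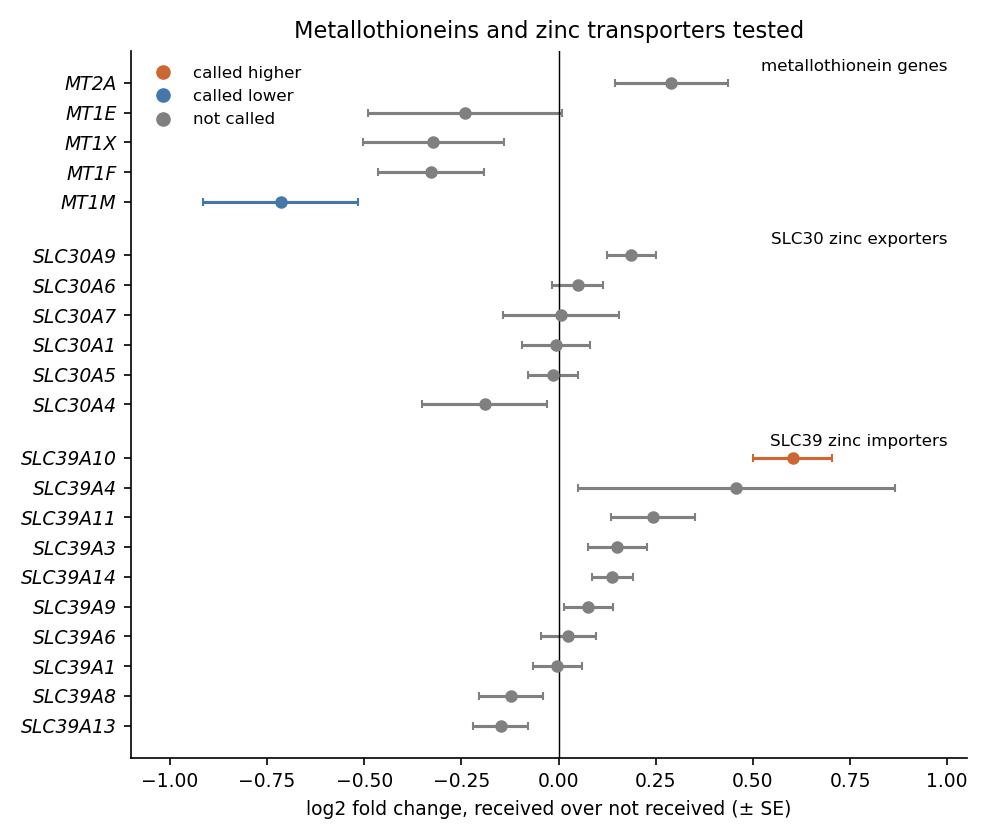
Log2 fold change, received over not received, of the tested metallothioneins, SLC30 zinc exporters and SLC39 zinc importers. Points are edgeR estimates with SE bars, orange for called higher, blue for called lower and grey for not called: SLC39A10 and MT1M are the 2 coloured points, MT2A lies to the right of 0 and the 4 MT1 genes to the left.

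Of 12 genes for the handling of copper, the other metal that metallothioneins hold, 11 were tested and 0 called by edgeR, DESeq2 or limma-voom (median log2 fold change -0.05; 3 had an unadjusted p under 0.05). The smallest p was that of COX11, which delivers copper to cytochrome c oxidase (log2 fold change 0.18 ± 0.08 SE, edgeR adjusted p = 0.120). CCS, the copper chaperone of superoxide dismutase, was called lower without not-received replicate 2 (edgeR adjusted p = 0.0280), and COX11 higher without not-received replicate 3 (edgeR adjusted p = 0.0455). Of 10 tested genes of metal and oxidant stress 2 were called lower, where 9.67% of all genes were, and 0 higher (median log2 fold change -0.06). These were HMOX1, heme oxygenase 1, at 28.1 ± 2.27 against 53.4 ± 2.42 CPM, and TXNRD1, thioredoxin reductase, at 243 ± 8.22 against 335 ± 9.58 CPM (SD, n = 3 each). SELENOH, a selenoprotein gene known as an MTF1 target in mouse, was not called either (82.0 ± 4.01 and 78.0 ± 12.6 CPM, SD, n = 3 each; edgeR adjusted p = 0.651).

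Hormone and cytokine genes that accompany metallothionein induction in other settings split. The glucocorticoid list had 9 tested genes, which include the receptor gene NR3C1 beside induced genes. Of these 9, 2 were called higher, CEBPD (log2 fold change 0.58 ± 0.08 SE) and PER1 (0.42 ± 0.08 SE), and 1 lower, TSC22D3 (-0.50 ± 0.11 SE), where 18.9% of all genes were called in either direction. Of 11 genes of interleukin-6 and STAT3 signalling 4 were called higher and 2 lower, where 9.21% and 9.67% of all genes were. LIF rose from 24.2 ± 0.810 to 62.2 ± 3.91 CPM and IL6 from 5.09 ± 0.828 to 12.7 ± 1.26 CPM (SD, n = 3 each), and JUNB and BCL3 were higher with log2 fold changes of 0.36 ± 0.07 SE and 0.35 ± 0.07 SE. The 2 called lower were JAK1 and SOCS3 (-0.23 ± 0.07 SE and -0.19 ± 0.06 SE). Neither remained called without received replicate 1, 2 or 3 or with library-size scaling, where edgeR called 0 genes of this list lower. Over the 13 alternatives JAK1 lost its call in 5, also without not-received replicate 2, and SOCS3 in 8, also without not-received replicate 1, with DESeq2, with no low-count filter and under the replicate block.

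The genes whose profile over the 6 libraries came closest to the summed metallothionein level were the pseudogene PAICSP1, FAU, which encodes a ribosomal protein fusion, PSMB10, a subunit of the immunoproteasome, TMEM126A, a mitochondrial membrane protein, and P2RX6, a purine receptor. Likeness was the root mean square difference of centred log2 CPM, which ran from 0.05 to 0.06 for these 5 out of 9597 candidates, and none of the 5 was called. Among the members it was 0.03 for MT2A, which makes up most of the sum, 0.18 for SLC39A14, 0.23 for SLC30A1, 0.24 for MTF1, 0.25 for MT1E, 0.28 for MT1X, 0.29 for MT1F, 0.29 for SLC39A10 and 0.52 for MT1M. The values of the MT1 genes and of the transporters overlapped.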

How the data were processed

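The authors deposited, for each of 6 libraries, 1 table of whole-number read counts by gene symbol, without normalization. DESeq and R 3.6.1 are named in the submitters' processing notes. Not given in the sources used here are aligner, counting program, build and annotation. Groups came from the titles. The 10 members and the gene lists were chosen with earlier results of these data known.

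Genes were kept with filterByExpr (14100 of 28833 with a count), scaled with TMM and tested with edgeR 4.0.16 (robust glmQLFit and glmQLFTest, R 4.3.3, group as the only term), with Benjamini-Hochberg adjustment over all genes tested. SEs were taken as the size of the log2 fold change over the root of F. Sums, shares and ratios were compared with exact two-sided permutation tests. Named were all members, other tested metallothioneins, called SLC30 and SLC39 genes, up to 4 called genes from each other list (or the gene with the smallest p) and 5 genes most like the pool; others were picked after their values were seen. Alternatives were RLE factors, library size alone, no filter, a CPM filter, DESeq2 1.42.0, limma-voom 3.58.1, a replicate block and leaving out each library. The steps were tested on simulated counts. Promoter windows came from RefSeq and lengths are the median of the principal transcripts.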

Additional observations from a re-analysis of the deposited data

How the results depend on the processing

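Of 117 refits of single members (9 genes, 13 alternatives), 98 kept direction and call, 8 gained a call, 5 lost it, all of MT1M with 1 library left out, and 6 turned sign, all of MTF1 or SLC30A1. With scaling by library size alone MTF1 was at 0.0069 and SLC30A1 at 0.032 on the log2 scale. With 1 library left out they ranged from -0.065 to 0.0037 and from -0.074 to 0.054, and the MT1L ratio to MT2A from -0.11 to 0.062. Members called higher numbered 2 with library size alone, no filter, DESeq2 or the replicate block, and those called lower 2 with no filter or the replicate block and 0 to 3 with 1 library left out. Over all genes, 2084 were called lower with no filter, and leaving out 1 library gave 604 to 1356 higher and 691 to 1579 lower. The cause of these changes was not tested.

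Groups share replicate numbers, but the labels do not say that a number marks a shared culture, and deviations of same-numbered libraries correlated at -0.15, 0.06 and -0.08, so the numbers were not taken to pair the libraries. Those correlations are over many genes, while the 5 metallothioneins had the same order by replicate number in both groups. The block lowered the SE from 0.15 to 0.07 for MT2A and from 0.25 to 0.08 for MT1E. Calls made with the block hold only if the numbers do pair the libraries. With the replicate block MT2A was called higher (log2 fold change 0.30, edgeR adjusted p = 0.00503), MT1L higher (0.29, adjusted p = 0.0243), MT1X lower (-0.32, adjusted p = 0.00915) and the summed family higher (0.25, adjusted p = 0.0186; 0.351 without the block), and over all genes 1252 were called higher and 1384 lower. MT1G, with 2 counts in all, was too low to test, and MT1M had 44 counts in its lowest library.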
